A study of Arabidopsis thaliana with 30 samples.

Results

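The 150 genes described here are those whose transcripts peaked most sharply in *Arabidopsis thaliana* seedlings 24 h after stratified seeds were moved into continuous light (24 h SL). They were taken from 37051 annotated nuclear genes in the count table. The level of a gene was its CPM, the count divided by the column total and scaled to 1000000 reads, averaged over the 3 libraries of each of 10 time points. A mean of at least 10 CPM at 24 h SL was reached by 11896 genes, and 2076 of these had their highest mean there. With TMM scaling 1173 genes met both conditions and with DESeq2 size factors 1058, so this number depends on the scaling to library size. The 150 with the largest ratio of the mean at 24 h SL to the highest mean among the other 9 time points, with 0.5 CPM added to both, were kept. These values chose the genes, so the peak itself is given as a description and was not tested.

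All samples were wild-type Col-0, from seeds of a single batch of plants. They were freshly harvested seeds (H), seeds after dry ripening (0 h), seeds plated on MS medium with sucrose and stratified in the cold and dark for 1, 12 and 48 h (1 h S, 12 h S, 48 h S), and material moved after 48 h of stratification to growth temperature and continuous light for 1, 6, 12, 24 and 48 h (1 h SL to 48 h SL). Each time point had 3 libraries, called biological replicates in the methods of the study, and p-values measure the spread between these libraries. Light came together with the end of the cold, so the 2 cannot be told apart. The study places radicle emergence within 24 h of light.

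The libraries held 8234345 to 76294780 counted reads (median 47254122), and each of the 150 genes had at least 274 reads in each 24 h SL library. Replicate 2 of 1 h S, the shallowest library, stood apart: 138 of the 150 genes were higher in it than in the other 1 h S libraries, with a median of 3.04 CPM, against 0.527 CPM in replicate 1 and 1.03 CPM in replicate 3. Replicate 2 of 1 h SL also stood apart, and the summed level of the genes other than ICL ran from 2466 to 5512 CPM over the 1 h SL libraries. Neither time point is compared in a test below, but the model was fitted over all 30 libraries, so these libraries share in its estimate of the spread. Replicate 3 of 12 h SL, with 12038278 reads, had 13.2% of its reads at nuclear ribosomal RNA loci, against 0.351% and 1.07% in its replicates, and 73 of the 150 genes were lowest and 55 highest in it. Without that library 42 genes were called higher and 17 lower at 48 h SL than at 12 h SL, and 66 higher and 2 lower at 12 h SL than at 6 h SL, close to the counts given below with it.

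Whole seeds and seedlings were sampled, and markers of several of their tissues moved over the same hours. All 8 seed storage transcripts were detected throughout, at a sum of 2166–4561 CPM at 12 h SL, 691.4–1650 CPM at 24 h SL and 446.3–476.5 CPM at 48 h SL. The 5 antenna protein transcripts summed to 149.4–176.5, 706.0–825.3 and 2659–3137 CPM at these times. Of 7 root hair markers, 3 reached a mean of 1 CPM at 12 h SL and all 7 at 24 h SL, where they summed to 46.84–106.7 CPM, and at 48 h SL they summed to 1303–1615 CPM. The 5 CASP genes of the endodermis were each below 1 CPM at 12 and 24 h SL and summed to 116.6–152.2 CPM at 48 h SL. The 3 root cap markers stayed low, at a sum of 6.65–13.1, 7.58–8.22 and 7.77–8.04 CPM at 12, 24 and 48 h SL. The part of tissue makeup in the results was not tested, and in whole seedlings more cells of a type and more RNA per cell cannot be told apart.

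Around radicle emergence and before greening, DNA is made in the meristems and cell walls are loosened so that cells can elongate. The surface is sealed with cutin, suberin and wax, and stored oil and protein are turned into sugar and amino acids. Oil reaches sugar through β-oxidation and the glyoxylate cycle, in which isocitrate lyase is a committed enzyme, and storage proteins are cut by vacuolar proteases. Ethylene, made by ACC synthase and ACC oxidase, takes part in germination and in the early growth of the hypocotyl and root.

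The ratio of the mean at 24 h SL to the next highest mean ran from 1.696 to 11.67, with a median of 1.969. It was at least 2 for 72 genes, at least 3 for 25 and at least 4 for 15. Mean levels at 24 h SL ran from 10.02 to 19700 CPM with a median of 37.95 CPM, and 44 genes reached 100 CPM. The last genes kept were AT5G59130 (1.703), AOC3 (1.702) and BXL2 (1.696), and the next ones left out were MBD4 (1.691), TCH3 (1.686) and SDR5 (1.685), so the limit fell within a continuous series. All 3 libraries at 24 h SL lay above the other 27 libraries for 149 of the 150 genes. The share over all nuclear genes with a mean of at least 1 CPM at any time point was 5.5%, and nothing is read from the difference because the rule chose on it. The exception was the peroxidase gene AT5G39580, with 101.7, 122.6 and 168.5 CPM at 24 h SL and 55.5–102.3 CPM at 6 h SL. The coefficient of variation at 24 h SL had a median of 13.1% (range 0.94% to 40.7%).

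The peak had a gradual front and an incomplete fall. The median gene stood at 0.353% of its 24 h SL mean at H, 1.05% at 0 h, 3.08% at 48 h S, 11.8% at 6 h SL, 30.1% at 12 h SL and 44.4% at 48 h SL. The early percents depend on the scaling to library size. For 48 h SL over 0 h the median log2 fold change of the 150 was 5.04 with library size alone and 3.82 with TMM. For 62 genes the mean stayed below 10% of the 24 h SL mean at each of the 7 time points up to 6 h SL. Narrow spikes were few: 31 genes were below 10% at 12 h SL, 7 at 48 h SL, and 4 at both. The next highest time point was 48 h SL for 103 genes and 12 h SL for 41. The other 6 genes had it earlier, 3 at 1 h SL and 1 each at 0 h, 48 h S and 6 h SL. Summed over the genes other than ICL, the level was 7901–9666 CPM at 12 h SL, 21120–21620 CPM at 24 h SL and 9332–10400 CPM at 48 h SL.

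**Figure D1:**
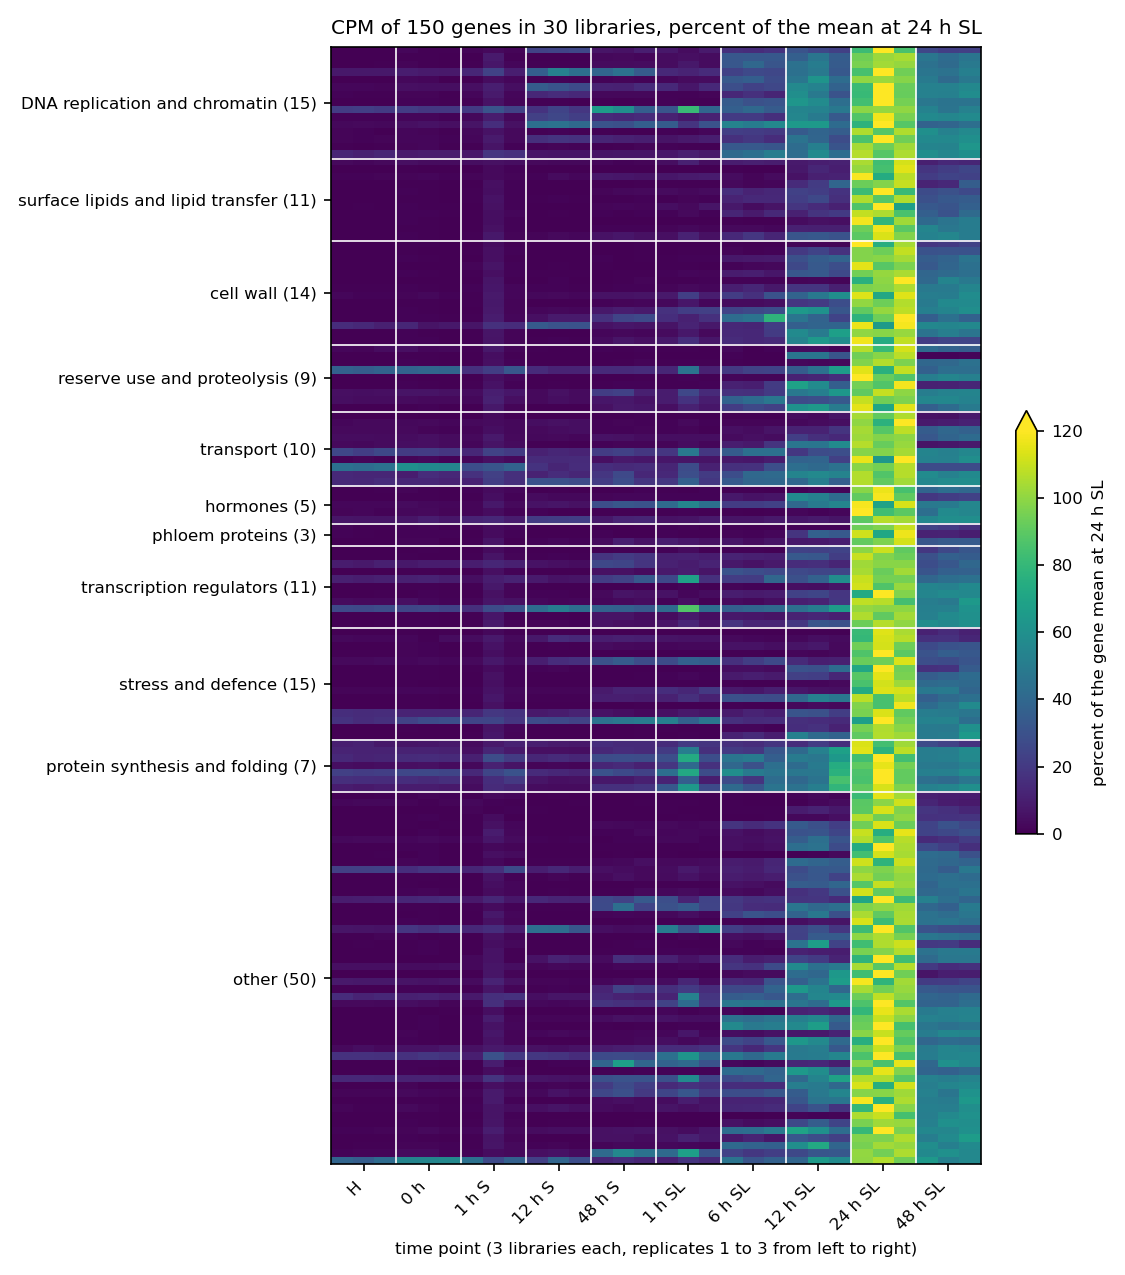
CPM of the 150 genes (rows, grouped by role, in order of the ratio within a group) in the 30 libraries (columns, 3 for each time point), as a percent of the mean of each gene at 24 h SL, with the colour scale capped at 120%. The 24 h SL columns stand out by choice of the genes. Most rows are low up to 48 h S, the median gene is at 30.1% at 12 h SL and 44.4% at 48 h SL, and replicate 2 of 1 h S differs from its neighbours.

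The rule fixed no order between time points other than 24 h SL, so these were compared by the edgeR quasi-likelihood test over 23222 genes (TMM normalisation, a Benjamini-Hochberg adjusted p below 0.01 as a call). The rule does cap each gene at all of them, and the 24 h SL libraries alone were enough for all 150 genes to pass the filter on low counts. In fits of only the 6 libraries compared, 144 of them passed for 12 h SL against 6 h SL and 131 for 6 h SL against 48 h S. All 150 passed for 48 h SL against 12 h SL and against 0 h. At 12 h SL 71 of the 150 genes were higher and 3 were lower than at 6 h SL, where 10.7% of all genes were higher and 12.9% lower. The median log2 fold change of the 150 was 1.1, against 0.00 for all genes. Scaling to library size alone moved the median of all genes to 0.16 and gave 2613 genes higher and 1963 lower, in place of 2495 and 2994, and 73 and 1 of the 150. At 6 h SL, relative to 48 h S, 69 of the 150 were higher and 14 lower (23.1% and 21.7% of all genes), with a median of 1.05, against 0.00 for all genes. With library size alone the median of all genes there was 0.20, and 72 and 8 of the 150 were called, beside 6266 and 3707 of all genes in place of 5363 and 5031.

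The time points on either side of the peak were then compared. Relative to 12 h SL, 45 of the 150 were higher at 48 h SL, 16 were lower and 89 were not called, where 37.5% of all genes were higher and 31.2% lower. The median log2 fold change was 0.05 for the 150 and 0.14 for all genes. With library size alone the median of all genes was 0.50, and 54 of the 150 were higher and 11 lower. In a fit of the 6 libraries of the comparison alone 54 were higher and 34 lower, so the number of lower genes depends on the libraries that share in the fit. The shares over all genes stand as background to the counts of each role group given later. The 2 comparisons combined in several ways. Of the 71 genes that were higher at 12 h SL than at 6 h SL, 22 were higher still at 48 h SL, 13 were lower there and 36 were not called. A further 21 genes were called higher at 48 h SL than at 12 h SL without a call at 12 h SL against 6 h SL. Relative to dry seed at 0 h, 128 of the 150 were higher at 48 h SL and 3 were lower (45.8% and 33.3% of all genes), with a median of 3.82, against 0.44 for all genes. With library size alone the median of all genes there was 1.66, and 144 and 1 of the 150 were called, beside 14736 and 4135 of all genes in place of 10642 and 7736. The 3 that were lower were UMAMIT20, AT3G60910 and ICL.

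The steps into and out of 24 h SL were fixed in direction by the choice of the genes. The fitted log2 fold change at 24 h SL over 12 h SL ran from 0.48 to 7.03 with a median of 1.46, and 25.9% of all genes were called higher and 22.0% lower in that comparison. That at 48 h SL over 24 h SL ran from -6.53 to -0.86 with a median of -1.26, where 21.9% of all genes were called higher and 19.0% lower. Nothing is read from these values.

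**Figure D2:**
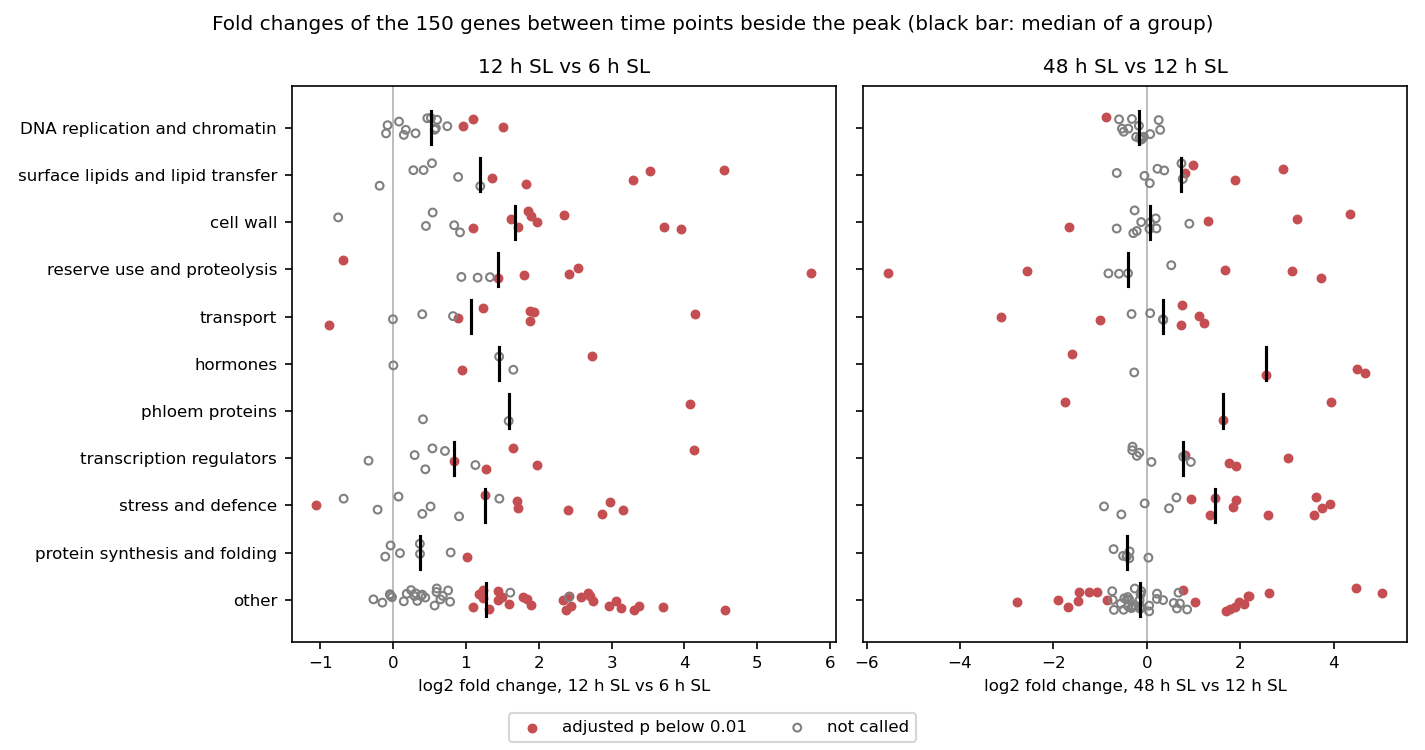
Log2 fold change (edgeR, TMM) of each of the 150 genes for 12 h SL against 6 h SL (left) and 48 h SL against 12 h SL (right), by role. Red points passed an adjusted p below 0.01, open points did not, and the black bar is the median of the group. In the right panel the DNA replication and chromatin genes lie near 0 (median -0.17), the stress and defence genes lie mostly above it (median 1.47), and reserve use and proteolysis holds the lowest value, -5.54 for AT1G29080.

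PUP19 (AT1G47603, chr1:17496657-17498152 on the minus strand of TAIR10), a member of the purine permease family, had the sharpest peak. It had 0.922, 0.717 and 1.66 CPM at 12 h SL, 25.01, 21.8 and 25.6 CPM at 24 h SL, and 1.40, 1.29 and 2.14 CPM at 48 h SL. The level at 12 h SL was already above the 0.0205–0.0873 CPM of the 6 h SL libraries, and the fitted log2 change was 4.14 (SE 0.60, adjusted p = 6.83e-06 by edgeR). Its neighbour CYP96A8 (AT1G47620), a cytochrome P450 of a family that includes a wax alkane hydroxylase, is also among the 150. The genes lie 9740 bases apart with 1 gene between them, and no other pair among the 150 has at most 1 protein-coding gene between its members. CYP96A8 had 3.05, 5.04 and 3.90 CPM at 12 h SL, 39.6, 33.00 and 44.7 CPM at 24 h SL and 7.29, 8.58 and 9.79 CPM at 48 h SL, so it stood higher relative to its peak than PUP19 on either side. It too was higher at 12 h SL than at 6 h SL (4.54, SE 0.51, adjusted p = 2.25e-07 by edgeR).

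The nitrate transporter gene NRT2.6 was close behind, with 1.06, 1.57 and 1.91 CPM at 12 h SL, 43.5, 33.7 and 53.5 CPM at 24 h SL and 3.75, 4.09 and 5.10 CPM at 48 h SL. Its 48 h SL libraries lay above all 12 h SL libraries (log2 fold change 1.22, SE 0.26, adjusted p = 0.000134 by edgeR). AT1G68230, a reticulon-family protein of the endoplasmic reticulum, and AT4G09950, a P-loop nucleoside triphosphatase, had 0.166–0.439 and 0.112–0.415 CPM at 12 h SL and peaked at 16.02 ± 2.73 and 12.5 ± 1.37 CPM (SD, n = 3). Among the 10 sharpest were also AT2G27140 and AT5G20970, both genes for HSP20-like proteins, the protein kinase gene AT1G78530 and the DUF716 membrane protein gene AT1G49470. They peaked at 17.9 ± 3.06, 19.6 ± 3.44, 16.4 ± 1.90 and 21.2 ± 1.29 CPM. All 6 of these genes were below 4 CPM in each 48 h SL library. AT5G20970 was the one of the 10 called lower before, with 0.349–0.568 CPM at 6 h SL, against 1.90–2.08 CPM at 48 h S (log2 fold change -2.37, SE 0.33, adjusted p = 8.14e-07 by edgeR). CYP86A4 and BXL1 complete the 10 and are described with their groups.

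**Figure D3:**
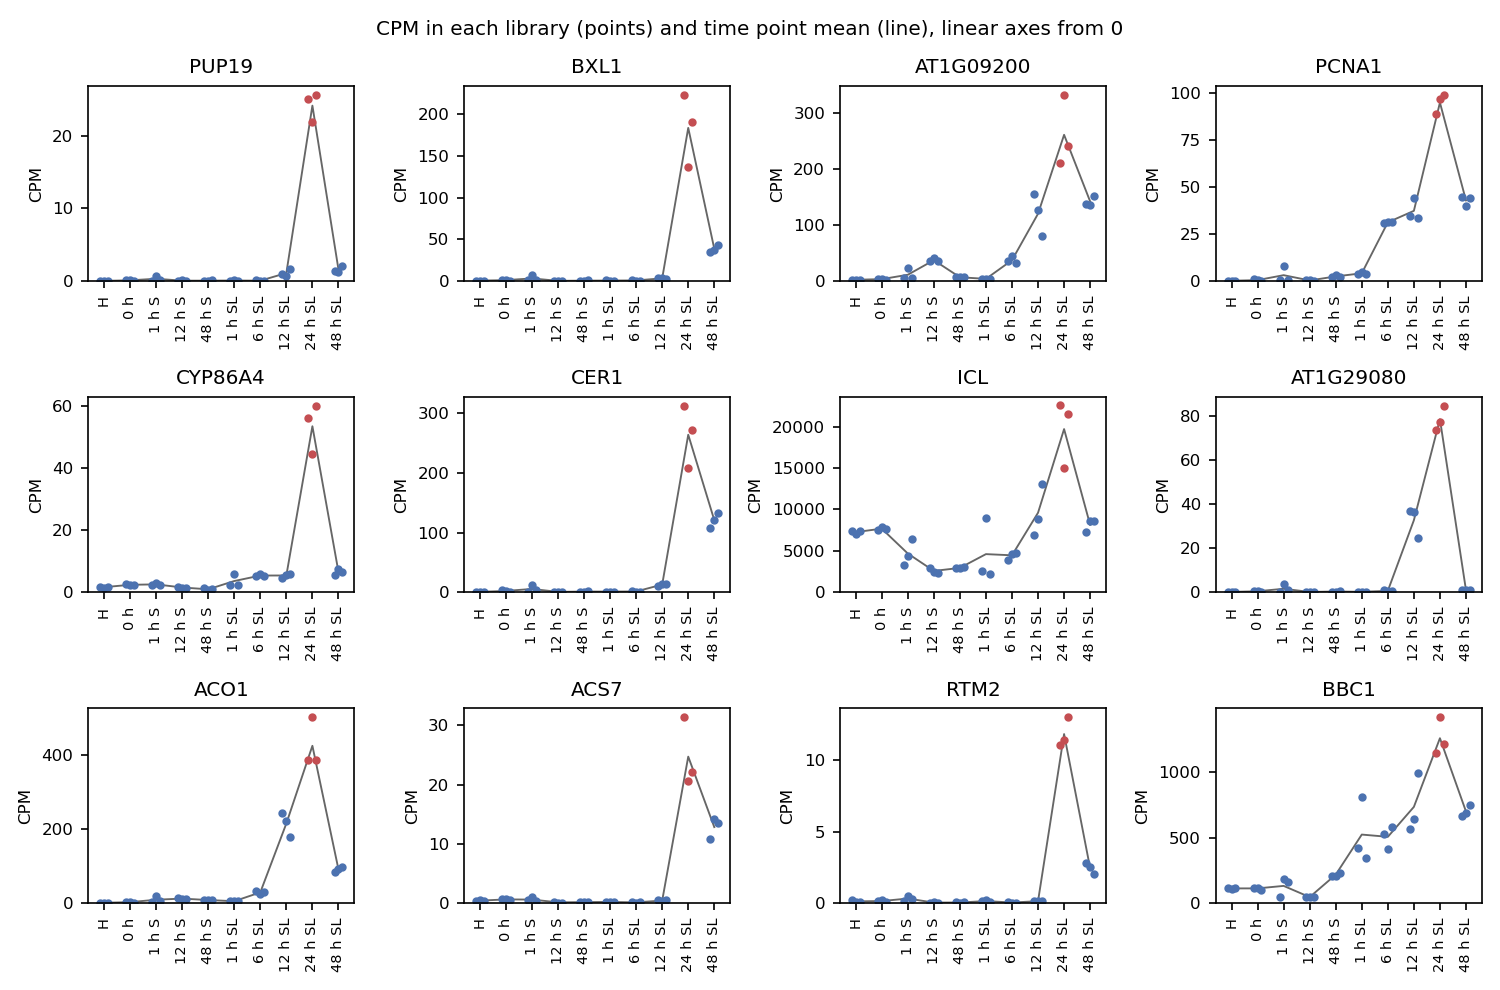
CPM in each library (points, red at 24 h SL) and the mean of each time point (line) for 12 of the 150 genes, on linear axes. PUP19, BXL1, CER1, ACS7 and RTM2 are near 0 at 12 h SL. CYP86A4 is low and flat before the peak, at 9.95% of its 24 h SL mean at 6 h SL and 9.99% at 12 h SL. AT1G29080 and ACO1 are well above 0 at 12 h SL and low again at 48 h SL. PCNA1, AT1G09200 and BBC1 have similar levels on both sides of the peak.

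Of the 150 genes, 15 act in DNA replication and chromatin. The replication genes encode the sliding clamp PCNA1, the origin-binding subunit ORC2, the replication factors MCM10 and PSF1 (a subunit of the GINS complex) and the large primase subunit EMB2813. The chromatin genes encode core histones (H3 from AT1G09200 and AT5G65360, H4 from AT5G59970 and AT3G45930, H2A from HTA6, H2B from HTB2 and H2A.Z from HTA11) and the histone methyltransferases ATXR6 and SDG4. AT5G02220 is annotated as an inhibitor of cyclin-dependent kinases. Copies of H3 and H4 are nearly identical, so reads may be split among them, and how such reads were counted is not given in the sources used here.

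Most of these genes were higher within 6 h of the move to light. At 6 h SL, relative to 48 h S, 9 of the 15 were higher and 2 lower, with a median log2 fold change of 2.25. Over all genes 23.1% were higher and 21.7% lower in that comparison. At 12 h SL only the core histone genes AT1G09200, HTA6 and AT5G65360 were higher than at 6 h SL, and the other 12 were not called. Of all genes 10.7% were higher and 12.9% lower at 12 h SL. PCNA1 had 2.23, 3.11 and 2.02 CPM at 48 h S, 30.9, 31.4 and 31.4 CPM at 6 h SL, 34.4, 44.4 and 33.3 CPM at 12 h SL, 89.1, 96.99 and 98.9 CPM at 24 h SL and 44.6, 40.03 and 44.1 CPM at 48 h SL. Its level at 12 h SL was not called against 6 h SL, and its libraries at 12 and 48 h SL overlap. The log2 fold change at 6 h SL over 48 h S was 3.46 (SE 0.45, adjusted p = 2.7e-07 by edgeR). For MCM10 it was 5.14 (SE 0.39, adjusted p = 2.58e-11) and for HTA11 5.45 (SE 0.37, adjusted p = 3.5e-12). HTB2 and PSF1 went the other way and fell by 0.87 (SE 0.19, adjusted p = 0.000417) and 0.74 (SE 0.20, adjusted p = 0.00306). With library size alone neither was called (edgeR adjusted p = 0.0116 and 0.0607), and PSF1 was not called without replicate 1 or 2 of 48 h S or replicate 3 of 6 h SL (adjusted p 0.0176 to 0.0412).

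The histone H3 gene AT1G09200 (chr1:2971571-2972334, minus strand) followed a second course. It had 35.2, 44.1 and 32.7 CPM at 6 h SL, 155.1, 126.6 and 79.9 CPM at 12 h SL, 211.4, 332.7 and 241.4 CPM at 24 h SL and 138.6, 136.8 and 152.3 CPM at 48 h SL. It was higher at 6 h SL than at 48 h S (log2 fold change 2.25, SE 0.29, adjusted p = 2.8e-07 by edgeR) and again at 12 h SL than at 6 h SL (1.52, SE 0.28, adjusted p = 0.000144), so it was called at both steps. Per kilobase of transcript its level at 24 h SL was 342.7 CPM, near that of HTB2 (342.3), HTA6 (321.3) and AT5G65360 (320.6) and above that of PCNA1 (84.1). At 48 h SL, 14 of the 15 genes were not called against 12 h SL. The exception was the H4 gene AT3G45930, with 29.2–33.9 CPM at 48 h SL and 32.6–50.1 CPM at 12 h SL, which overlap (log2 fold change -0.87, SE 0.25, adjusted p = 0.00305 by edgeR). That call was lost without replicate 1 or 2 of 12 h SL or replicate 1 or 2 of 48 h SL (adjusted p 0.0102 to 0.0163) and with library size alone (0.0825).

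The peak at 24 h SL was common among replication genes at large. Of 31 genes on a list of DNA replication factors, 26 (83.9%) had their highest mean at 24 h SL, where the share was 13.6% over the 20523 nuclear genes with a mean of at least 1 CPM at any time point, but only 5 were sharp enough to be among the 150. With TMM scaling, tried after these values were seen, the numbers were 21 (67.7%) and 9.37%. At 6 h SL, against 48 h S, 24 of these 31 genes were higher and 4 fell, with a median log2 fold change of 1.86, and none was higher and 3 were lower at 12 h SL than at 6 h SL. Of 48 core histone genes 20 (41.7%) peaked at 24 h SL, and 7 of these are among the 150 and were chosen for that peak. At 48 h SL 6 of 50 core histone genes tested were higher and 20 lower than at 12 h SL (median -0.56). The shares over all genes there were 37.5% and 31.2%.

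Sequence words known from promoters of S-phase genes were searched on both strands from 250 bases before the transcript start to the end of a window of 300 bases. The E2F words were TTTCCCGC, TTTGGCGC, TTTCGCGC and TTTGCCGC, and the histone octamer was CGCGGATC. An E2F word lay in 10 of the 148 protein-coding genes among the 150 (6.76%), in 4 of the 15 replication and chromatin genes (26.7%), in 14 of the 31 listed replication genes (45.2%) but 1 of the 5 that are among the 150, in 3.13% of the other genes with at least 10 CPM and their highest mean at 24 h SL and in 1.76% of 27437 protein-coding genes. The histone octamer lay in 3 of the 148 (2.03%), all core histone genes, in 9 of 52 core histone genes (17.3%) and in 0.146% of all protein-coding genes. Of the 15 genes, 11 had no E2F word and 12 no octamer, and the 3 with the octamer were not those with an E2F word. The words found are printed in capitals with 11 bases on either side, 5′ to 3′ in the direction of transcription, from RefSeq TAIR10.1 (nuclear coordinates as in TAIR10) for 2 of the genes with the octamer and as examples of the E2F word. The H3 and H2A genes carry the same 8 bases, and AT1G09200 carries them in 2 places, from 90 and from 19 bases before the start.
AT1G09200, upstream copy (chr1:2972406-2972435, minus strand): tcgtaccttcaCGCGGATCagtgttagaaa
AT1G09200, downstream copy (chr1:2972335-2972364, minus strand): ctgtgatttcaCGCGGATCgtgatagaaac
HTA6 (chr5:24116318-24116347, minus strand): atacatagtcaCGCGGATCgtgctttattt
ORC2, E2F word (chr2:15758581-15758610, plus strand): aagaaaaacgcGCGGGAAAattgagagact
ATXR6, E2F word (chr5:8297110-8297139, minus strand): ccgtaacagtgGCGCCAAAttaaaattccc
AT4G28310, E2F word (chr4:14017269-14017298, plus strand): aaaaaaaaactGCGGGAAAggaaaatagaa

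The E2F words printed read on the other strand. A match of this kind is a description of the letters and not a measured binding site. AT4G28310, annotated as microtubule-associated, lies outside the replication group and was picked for its value: its log2 fold change at 6 h SL over 48 h S was 5.49 (SE 0.34, adjusted p = 8.09e-13 by edgeR), with 20.6, 20.1 and 18.4 CPM at 6 h SL, against 0.328, 0.338 and 0.481 CPM at 48 h S. It carries 2 E2F words, from 63 and from 41 bases before its start.

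**Figure D4:**
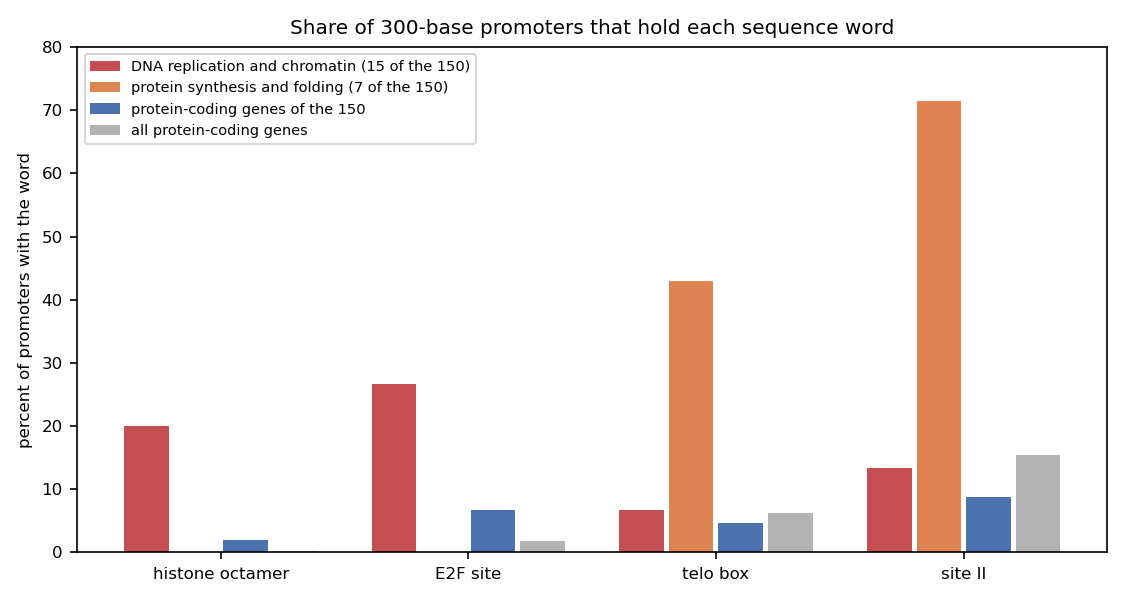
Percent of promoters (300 bases around the transcript start, both strands) that hold each sequence word, for the 15 DNA replication and chromatin genes, the 7 protein synthesis and folding genes, all 148 protein-coding genes of the 150 and all protein-coding genes. Of the sets drawn, the histone octamer and the E2F word stand highest in the replication and chromatin genes (3 and 4 of 15). Site II stands highest in the protein synthesis genes (5 of 7), and lay also in 61.3% of the listed DNA replication genes, which are not drawn.

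Surface lipids and lipid transfer account for 11 genes. Against 48 h S, 6 were higher and 1 lower at 6 h SL, at 12 h SL 5 were higher than at 6 h SL, and at 48 h SL 4 were higher than at 12 h SL, with none lower in the last 2 comparisons. Over all genes 23.1% were higher and 21.7% lower at 6 h SL, and 10.7% higher and 12.9% lower at 12 h SL. The 4 of 11 are close to the 37.5% of all genes called higher at 48 h SL, where 31.2% were lower. CER1, needed for the alkanes of cuticular wax, had 10.8, 13.9 and 12.9 CPM at 12 h SL, 312.0, 208.3 and 272.3 CPM at 24 h SL and 108.2, 121.4 and 132.6 CPM at 48 h SL. It was higher at 12 h SL than at 6 h SL (log2 fold change 3.53, SE 0.51, adjusted p = 6.35e-06 by edgeR), and its 48 h SL libraries all lay above those at 12 h SL (2.92, SE 0.46, adjusted p = 2.04e-06). CYP86A4, a fatty acid ω-hydroxylase that makes cutin monomers, had a flat front instead. It had 5.13, 5.74 and 5.13 CPM at 6 h SL, 4.69, 5.48 and 5.90 CPM at 12 h SL, 56.2, 44.5 and 60.1 CPM at 24 h SL and 5.63, 7.46 and 6.58 CPM at 48 h SL. Its one call in the 4 comparisons was at 6 h SL over 48 h S (2.39, SE 0.25, adjusted p = 8.17e-09 by edgeR), and the ranges at 6, 12 and 48 h SL overlap.

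ABCG1, an ABC transporter of suberin precursors, was lower at 6 h SL before its peak. It had 1.82, 1.74 and 1.54 CPM at 48 h S, 0.939, 0.428 and 0.862 CPM at 6 h SL, 1.40, 2.50 and 2.74 CPM at 12 h SL and 27.96, 17.3 and 25.3 CPM at 24 h SL, and was lower at 6 h SL than at 48 h S (log2 fold change -1.42, SE 0.28, adjusted p = 9.38e-05 by edgeR). FTM1, annotated as a stearoyl-acyl-carrier-protein desaturase, had 378.4 CPM per kilobase at 24 h SL, next in the group to the lipid transfer gene AT2G45180 at 390.0. Its libraries were uneven on both sides of the peak, with 83.5, 117.3 and 220.3 CPM at 12 h SL and 67.6, 77.4 and 198.9 CPM at 48 h SL, and replicate 3 was the highest at both. AT2G45180 had 180.0–205.8 CPM at 48 h SL and 39.5–41.7 CPM at 12 h SL, without overlap (log2 fold change 1.89, SE 0.42, adjusted p = 0.000224 by edgeR).

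The wider list of 27 genes for cuticle and wax synthesis peaked at various times. Of its 24 genes with at least 1 CPM, 7 (29.2%) had their highest mean at 24 h SL, against 13.6% of all genes. Among the 150 are 4 of these: CYP86A4, KCS2 (an elongase of very long fatty acids), CER1 and LTPG2 (a lipid transfer protein). These 4 were chosen for that peak, so nothing is read from the share. At 48 h SL 18 of 25 tested genes of the list were higher than at 12 h SL and 1 was lower (median 1.75). Over all genes 37.5% were higher and 31.2% lower there.

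Cell wall genes were 14 in number, and all 14 were higher at 48 h SL than at 0 h (median log2 fold change 4.74). At 6 h SL 9 were higher than at 48 h S and at 12 h SL 9 were higher than at 6 h SL, with none lower in either. The shares of all genes called higher in these comparisons were 45.8%, 23.1% and 10.7%, in the order given. The β-xylosidase genes BXL1 and BXL2 had unlike levels on the flanks of the peak. BXL1, which trims arabinan and xylan side chains, had 3.35, 3.42 and 2.91 CPM at 12 h SL, 222.5, 137.1 and 190.7 CPM at 24 h SL and 35.1, 37.2 and 43.6 CPM at 48 h SL. BXL2 had 349.6, 420.4 and 386.2 CPM at 12 h SL, 769.3, 483.5 and 709.3 CPM at 24 h SL and 141.5, 161.7 and 159.9 CPM at 48 h SL. Neither gene had overlapping libraries between 12 and 48 h SL. BXL1 was higher at 48 h SL than at 12 h SL (log2 fold change 3.21, SE 0.45, adjusted p = 3.54e-07 by edgeR) and BXL2 was lower (-1.67, SE 0.40, adjusted p = 0.000425), although with library size alone BXL2 was not called (-1.32, adjusted p = 0.0156). The difference between the genes was not itself tested.

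EXPA9, an α-expansin that loosens walls, and XTH16, which cuts and rejoins xyloglucan, were higher at 6 h SL than at 48 h S, by 2.58 (SE 0.43, adjusted p = 1.12e-05 by edgeR) and 1.35 (SE 0.42, adjusted p = 0.00785) on the log2 scale. The call of XTH16 was lost when any 1 of the 6 libraries was left out (adjusted p 0.0162 to 0.0296), with DESeq2 (0.0121) and with library size alone (0.0108). Both genes were among the most abundant of the group per kilobase at 24 h SL, at 251.0 and 287.8 CPM. The α-galactosidase gene AGAL2 and the glycosyl hydrolase gene AT2G16230 were higher at 12 h SL than at 6 h SL, by 3.96 (SE 0.32, adjusted p = 1.89e-09 by edgeR) and 3.72 (SE 0.29, adjusted p = 9.82e-10). PER4, a class III peroxidase, came later, with 0.391, 0.578 and 0.498 CPM at 12 h SL, 20.6, 26.99 and 33.6 CPM at 24 h SL and 10.9, 14.6 and 13.2 CPM at 48 h SL. Its 48 h SL level was higher than that at 12 h SL by 4.36 (SE 0.47, adjusted p = 4.42e-09 by edgeR).

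Genes of reserve use and proteolysis were 9 in number. At 48 h SL 3 were higher and 2 lower than at 12 h SL, shares not far from those over all genes (37.5% and 31.2%). ICL (AT3G21720, chr3:7652487-7656053, minus strand), the isocitrate lyase of the glyoxylate cycle, was the most abundant of the 150, with 8901 CPM per kilobase at 24 h SL. It had 7532, 7839 and 7617 CPM at 0 h, 2858, 2852 and 3040 CPM at 48 h S, 6900, 8809 and 13050 CPM at 12 h SL, 22560, 15040 and 21500 CPM at 24 h SL and 7253, 8555 and 8546 CPM at 48 h SL. It thus started high in dry seed, was low after the cold and peaked at 24 h SL, and its libraries at 12 and 48 h SL overlap. At 48 h SL ICL was called lower than at 0 h, by edgeR, with 1.14 less on the log2 scale (SE 0.33, adjusted p = 0.00218), although the CPM of these time points overlap. With library size alone the difference was 0.08 (adjusted p = 0.824), so this direction depends on the scaling. Of 7 genes on a list of the glyoxylate cycle and gluconeogenesis, 3 peaked at 24 h SL, with ICL alone among the 150 and 1 of 7 with TMM scaling, and 1 was higher and 3 lower at 48 h SL than at 12 h SL.

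The papain-type protease gene AT1G29080 had the largest change of the 150 on both flanks. It had 0.349–0.939 CPM at 6 h SL, 24.6–36.8 CPM at 12 h SL, 73.8–84.5 CPM at 24 h SL and 0.738–1.14 CPM at 48 h SL. The log2 fold change was 5.73 at 12 h SL over 6 h SL (SE 0.51, adjusted p = 8.17e-09 by edgeR) and -5.54 at 48 h SL over 12 h SL (SE 0.48, adjusted p = 8.17e-11). DELTA-VPE, a vacuolar processing enzyme, had a like course, with 138.8, 117.2 and 72.7 CPM at 12 h SL, 192.3, 176.5 and 238.2 CPM at 24 h SL and 22.8, 23.1 and 25.7 CPM at 48 h SL. It was lower at 48 h SL than at 12 h SL without overlap (-2.56, SE 0.42, adjusted p = 3.7e-06 by edgeR). AT2G27420, a protease of the same superfamily as AT1G29080, went the other way. It had 1.01, 0.878 and 0.997 CPM at 12 h SL, 37.7, 41.2 and 37.4 CPM at 24 h SL and 15.6, 15.8 and 17.4 CPM at 48 h SL, and was higher at 48 h SL than at 12 h SL (3.73, SE 0.40, adjusted p = 2.74e-09 by edgeR).

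Sugar and energy genes of the group were SUS6, a sucrose synthase, HXK3, a plastid hexokinase, and AAC2, a mitochondrial ADP/ATP carrier. SUS6 had 0.391, 0.439 and 0.166 CPM at 12 h SL, 11.5, 8.74 and 12.1 CPM at 24 h SL and 4.54, 4.09 and 3.83 CPM at 48 h SL, without overlap. It was higher at 48 h SL than at 12 h SL (log2 fold change 3.11, SE 0.41, adjusted p = 1.15e-07 by edgeR). AAC2 was among the 3 of the 150 that were lower at 12 h SL than at 6 h SL (-0.68, SE 0.20, adjusted p = 0.00919 by edgeR), with 64.2–77.9 CPM at 12 h SL and 88.2–112.0 CPM at 6 h SL, before it reached 257.2, 220.4 and 226.7 CPM at 24 h SL. This call was lost when any 1 of the 6 libraries was left out (adjusted p 0.0112 to 0.0465) and with library size alone (0.172).

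Transporters were 10 in number. Between 48 and 12 h SL, 4 were higher at 48 h SL and 2 were lower, where 37.5% of all genes were higher and 31.2% lower. The 2 were UMAMIT25 and UMAMIT20, of a family of amino acid transporters. UMAMIT25 had 14.9, 14.9 and 18.5 CPM at 12 h SL, 33.9, 29.3 and 32.4 CPM at 24 h SL and 2.02, 2.36 and 2.71 CPM at 48 h SL, and was lower at 48 h SL than at 12 h SL (log2 fold change -3.12, SE 0.27, adjusted p = 5.73e-11 by edgeR). UMAMIT20 was also high in dry seed, with 43.6, 41.5 and 40.3 CPM at 0 h, 71.97, 69.3 and 77.9 CPM at 24 h SL and 20.1, 20.04 and 20.2 CPM at 48 h SL. On TMM or DESeq2 scaling its highest mean moved to 0 h, as did that of AT3G60910, a methyltransferase-like gene, and the other 148 genes kept theirs at 24 h SL. SAG29, a SWEET sugar transporter, had 7.81–12.7 CPM at 12 h SL, against 2.03–2.79 CPM at 6 h SL (1.89, SE 0.21, adjusted p = 1.85e-07 by edgeR), and reached 55.8–58.4 CPM at 24 h SL. ZIP4, a zinc transporter, was lower at 12 h SL than at 6 h SL (-0.88, SE 0.19, adjusted p = 0.000815 by edgeR) before its peak of 41.9–44.6 CPM, a call lost with library size alone (adjusted p = 0.03).

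Hormone synthesis, transport and response gave 5 genes. ACO1, an ACC oxidase that makes ethylene, had 244.4, 220.9 and 179.1 CPM at 12 h SL, 386.5, 501.5 and 385.5 CPM at 24 h SL and 83.03, 91.98 and 98.6 CPM at 48 h SL. ACS7, an ACC synthase that makes its substrate, had 0.475, 0.277 and 0.498 CPM at 12 h SL, 31.4, 20.6 and 22.2 CPM at 24 h SL and 10.8, 14.2 and 13.6 CPM at 48 h SL. ACO1 was thus higher before the peak than after it and ACS7 higher after it, with no overlap between 12 and 48 h SL in either. At 48 h SL over 12 h SL the log2 fold change was -1.59 for ACO1 (SE 0.35, adjusted p = 0.000175 by edgeR) and 4.67 for ACS7 (SE 0.39, adjusted p = 3.6e-11). Of 11 listed genes of ethylene synthesis with at least 1 CPM, ACO1 and ACS7 were the 2 (18.2%) that peaked at 24 h SL, near the 13.6% of all genes. Of 12 tested, 10 were higher at 48 h SL than at 12 h SL, where 37.5% of all genes were, and ACO1 was the 1 that was lower. AOC3, an allene oxide cyclase of jasmonate synthesis, had 2.33–2.89 CPM at 12 h SL, 30.1–35.95 CPM at 24 h SL and 18.7–19.99 CPM at 48 h SL (48 h SL over 12 h SL 2.56, SE 0.20, adjusted p = 1.33e-11 by edgeR). EIR1, the auxin efflux carrier PIN2 of the root tip, was already at 20.7–23.3 CPM at 48 h S, and its libraries at 12 and 48 h SL overlap. The auxin-responsive SAUR gene AT1G75590 had one of the 5 largest gains of the 150 at 48 h SL over 12 h SL (4.50, SE 0.45, adjusted p = 1.15e-09 by edgeR).

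Genes for phloem proteins were 3. RTM2, which restricts the movement of a virus in phloem, had 0.112, 0.116 and 0.166 CPM at 12 h SL, 11.04, 11.4 and 13.00 CPM at 24 h SL and 2.80, 2.51 and 2.00 CPM at 48 h SL. SEOa, a sieve element occlusion protein, had 2.599, 5.25 and 4.82 CPM at 12 h SL, 15.9, 10.2 and 16.7 CPM at 24 h SL and 1.64, 1.68 and 1.43 CPM at 48 h SL. RTM2 was thus higher at 48 h SL than at 12 h SL (log2 fold change 3.94, SE 0.41, adjusted p = 1.77e-09 by edgeR) and SEOa lower (-1.75, SE 0.33, adjusted p = 3.42e-05), without overlap in either. PP2-A5, of the phloem protein 2 family, was higher (1.63, SE 0.35, adjusted p = 0.000164 by edgeR).

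Of 11 genes for transcription regulators, 5 were higher at 12 h SL than at 6 h SL and 4 were higher at 48 h SL than at 12 h SL, with none lower in either. The 4 of 11 are close to the 37.5% of all genes called higher at 48 h SL, and at 12 h SL 10.7% of all genes were higher. LATE, a C2H2 zinc finger protein that delays flowering when overexpressed, had 0.246–0.415 CPM at 6 h SL, 6.84–7.14 CPM at 12 h SL, 27.1–32.9 CPM at 24 h SL and 5.81–9.58 CPM at 48 h SL. It was higher at 12 h SL than at 6 h SL (log2 fold change 4.13, SE 0.42, adjusted p = 4.58e-08 by edgeR), and its libraries at 12 and 48 h SL overlap. GRF7, a growth-regulating factor, was lower at 6 h SL, with 1.14–1.56 CPM, than at 48 h S, with 3.51–4.99 CPM (-1.87, SE 0.20, adjusted p = 9.64e-09 by edgeR), and reached 18.8–19.6 CPM at 24 h SL. BZIP61, a basic leucine zipper protein, had 2.03–2.99 CPM at 12 h SL, 39.1–50.3 CPM at 24 h SL and 23.9–25.7 CPM at 48 h SL (48 h SL over 12 h SL 3.02, SE 0.39, adjusted p = 7.57e-08 by edgeR). HB-3, a homeobox protein, was higher at 6 h SL than at 48 h S (2.38, SE 0.33, adjusted p = 7.05e-07 by edgeR), had 13.5–14.4 CPM at 12 h SL and reached 50.2–56.6 CPM at 24 h SL. Of the others, the homeobox gene HB25 and the AT-hook gene SOB3 had no call in the 4 comparisons.

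Stress and defence genes were 15 in number, and 10 were higher at 48 h SL than at 12 h SL, with none lower. Over all genes 37.5% were higher and 31.2% lower there. AT4G01700, a chitinase, had 7.74, 5.87 and 8.56 CPM at 12 h SL, 295.4, 418.0 and 304.5 CPM at 24 h SL and 103.5, 121.3 and 112.1 CPM at 48 h SL (48 h SL over 12 h SL 3.58, SE 0.36, adjusted p = 1.16e-09 by edgeR). ELIP2, an early light-induced protein of the thylakoid, had 4.53, 4.32 and 6.40 CPM at 12 h SL, 176.7, 231.0 and 211.9 CPM at 24 h SL and 85.6, 87.99 and 84.4 CPM at 48 h SL (3.76, SE 0.46, adjusted p = 3.07e-08 by edgeR). Neither showed overlap among the 3 time points. BGLU21, a β-glucosidase with near-identical copies among which reads may be split, had 11.7–15.3 CPM at 12 h SL, 370.9–510.5 CPM at 24 h SL and 181.5–250.7 CPM at 48 h SL.

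ChiC, a class V chitinase, was lower at 12 h SL, with 4.83, 3.44 and 3.65 CPM, than at 6 h SL, with 5.74, 7.49 and 8.99 CPM (log2 fold change -1.05, SE 0.19, adjusted p = 9.07e-05 by edgeR), before it reached 31.5, 32.1 and 38.8 CPM at 24 h SL. The glutathione S-transferase gene GSTF7 had 7.14–10.4 CPM at 12 h SL, 109.1–167.8 CPM at 24 h SL and 57.9–72.2 CPM at 48 h SL (48 h SL over 12 h SL 2.59, SE 0.27, adjusted p = 1.73e-09 by edgeR). The thaumatin-like gene AT1G73620 had the largest gain of the 150 at 48 h SL over 0 h (6.35, SE 0.49, adjusted p = 2.4e-12 by edgeR). Of 17 chitinase genes with at least 1 CPM, 6 (35.3%) peaked at 24 h SL, where the share of all genes was 13.6%. Of these 6, AT4G01700, ChiC and AT1G56680 are among the 150 and were chosen for that peak, so nothing is read from the share. Of 19 chitinase genes tested 16 were higher and 3 lower at 48 h SL than at 12 h SL, beside 37.5% and 31.2% of all genes.

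Protein synthesis and folding gave 7 genes. None was called between 48 and 12 h SL, where 37.5% of all genes were higher and 31.2% lower at 48 h SL. At 12 h SL 1 was higher than at 6 h SL, and at 6 h SL 3 were higher than at 48 h S. The shares of all genes called higher in these 2 comparisons were 10.7% and 23.1%, in the order given. HSC70-1, a cytosolic chaperone, had 2108, 2728 and 3513 CPM at 12 h SL, 5910, 4010 and 5559 CPM at 24 h SL and 2620, 2653 and 2957 CPM at 48 h SL. It was higher at 12 h SL than at 6 h SL (log2 fold change 1.02, SE 0.25, adjusted p = 0.0025 by edgeR), a call lost without replicate 1 or 2 of 6 h SL or replicate 3 of 12 h SL (adjusted p 0.0169 to 0.0253). Per kilobase it had 2019 CPM at 24 h SL. BBC1 and AT5G23900, both genes of ribosomal protein L13 with similar sequences, reached 821.7 and 465.4 CPM per kilobase at 24 h SL. BBC1 had 570.0, 645.5 and 994.4 CPM at 12 h SL, 1146, 1425 and 1217 CPM at 24 h SL and 665.6, 687.4 and 751.8 CPM at 48 h SL, with overlap of the outer time points. NS2, an asparaginyl-tRNA synthetase, had the sharpest peak of the group, with 15.99–21.6 CPM at 24 h SL, and its libraries at 48 h S and at 6, 12 and 48 h SL lay between 2.69 and 5.19 CPM. Of 317 ribosomal protein genes 55 (17.4%) peaked at 24 h SL, near the 13.6% of all genes, and of 327 tested 11 were higher and 265 lower at 48 h SL than at 12 h SL (median -1.67). The 3 among the 150, BBC1, AT5G23900 and AT5G64650, had log2 fold changes of -0.43, -0.51 and -0.71 there and were not called (edgeR adjusted p = 0.12, 0.0772 and 0.0595). The difference from the list was not tested.

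Promoters were also searched for words known from ribosomal protein genes. Other words searched in the same promoters are not described here. The site II word TGGGCC lay in 5 of the 7 (71.4%), those of NS2, BBC1, AT5G23900, AT1G73230 (a subunit of the nascent polypeptide-associated complex) and NRPB8A (a subunit of RNA polymerase). It lay in 8.78% of the 148 protein-coding genes, in 15.4% of all protein-coding genes, in 22.9% of those that reached 10 CPM at 24 h SL and in 26.9% of the other genes with at least 10 CPM and their highest mean at 24 h SL. Site II also lay in 19 of the 31 listed DNA replication genes (61.3%) and in 15 of 52 core histone genes (28.8%). The word was thus not particular to this group. The telo box AAACCCTA lay in 3 of the 7 (BBC1, AT5G23900 and the chaperone gene HSC70-1), in 4.73% of the 148 and in 6.25% of all. The words are printed in capitals with 11 bases on either side, because AT5G23900 has both within a short stretch and NS2 has site II in the gene with the sharpest peak of the group.
AT5G23900, site II on the other strand (chr5:8065596-8065623, minus strand): attaaagaccaGGCCCAtttataaagat
AT5G23900, telo box on the other strand (chr5:8065545-8065574, minus strand): gtctcaacaacTAGGGTTTcattttatata
NS2, site II (chr3:2377002-2377029, minus strand): caaaaatctatTGGGCCatttgggcctc
In AT5G23900 the words begin 62 and 13 bases before the start. In NS2 the word begins 43 bases before the start, and a second one, in lower case in the same window, begins 34 bases before it.

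The other 50 genes were not joined by a shared role. At 12 h SL 27 of them were higher than at 6 h SL and none lower, and at 48 h SL 12 were higher and 8 lower than at 12 h SL. Over all genes the shares were 10.7% higher and 12.9% lower at 12 h SL, and 37.5% and 31.2% at 48 h SL. AT1G73120, an F-box protein gene among the 5 most abundant of the 150, had 369.9, 327.9 and 238.1 CPM at 12 h SL, 438.0, 799.9 and 504.6 CPM at 24 h SL and 229.1, 247.4 and 241.1 CPM at 48 h SL. AT1G54890, annotated as late embryogenesis abundant protein-like, had the largest gain at 48 h SL over 12 h SL (log2 fold change 5.04, SE 0.46, adjusted p = 2.08e-10 by edgeR), with 0.503, 0.347 and 0.582 CPM at 12 h SL, 28.6–37.2 CPM at 24 h SL and 17.3, 19.1 and 20.5 CPM at 48 h SL. On the falling side SQP1, a squalene epoxidase-like gene, and AT3G45320, of unknown function, were lower at 48 h SL than at 12 h SL by 1.91 (SE 0.19, adjusted p = 7.66e-10 by edgeR) and 2.79 (SE 0.31, adjusted p = 1.02e-08). Both had been higher at 12 h SL than at 6 h SL, with 3.70 for AT3G45320 on the log2 scale. At 6 h SL over 48 h S the transcribed pseudogene AT3G30214 had the largest gain of the 150 (6.17, SE 0.33, adjusted p = 4.66e-14 by edgeR) and AT1G78860, a mannose-binding lectin gene, the largest loss (-4.24, SE 0.35, adjusted p = 1.26e-10).

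Isoform use was compared for genes with at least 2 listed transcripts. The measure was the log2 ratio of the 2 most abundant isoforms, with 0.1 added to both signals (TPM divided by a size factor), tested with limma. For 24 h SL against 12 h SL 5 of 45 genes passed an adjusted p below 0.01 (3.4% of 7285 genes tested), and for 48 h SL against 24 h SL none of 46 passed (1.52% of 7561), with 8 of these at an unadjusted p below 0.05. The clearest was HXK3. Its main isoform had a signal of 32.3, 26.8 and 23.6 at 24 h SL and 3.15, 3.29 and 4.43 at 12 h SL, while the minor isoform had 0.304, 0.198 and 0.359 at 24 h SL and 0.283, 0.163 and 0.768 at 12 h SL. The groups did not overlap for the main isoform and did for the minor one (log2 ratio 3.12 higher at 24 h SL, SE 0.35, adjusted p = 2.45e-06 by limma). BZIP61, AT2G19660 (a C1-domain gene), SEOa and AT1G69526 (a methyltransferase-like gene) also had a higher ratio of the main isoform at 24 h SL, by 2.32, 1.83, 1.62 and 1.73, with limma adjusted p of 1.56e-05, 8.07e-05, 0.000171 and 0.00668. In all 5 the minor isoform was low, where the added 0.1 weighs on the ratio. The rule fixed the gain of each gene at 24 h SL, and with a minor isoform near the added value that gain alone raises the ratio, so these calls are not independent of the choice of the genes. When both isoforms had to exceed a mean of 1, none of 29 genes passed by limma, with 5 at an unadjusted p below 0.05. Without replicate 3 of 12 h SL 2 of 43 passed, and AT1G69526 also lost its call without replicate 1 of 12 h SL or replicate 1 or 3 of 24 h SL (limma adjusted p 0.0105 to 0.0511).

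By position, 48 of the genes lie on chromosome 1, 20 on 2, 30 on 3, 15 on 4 and 37 on 5. Chromosome 1 holds 25.5% of the 2076 genes with at least 10 CPM and their highest mean at 24 h SL. The shares of these genes on chromosomes 2 to 5 are 16.1%, 20.7%, 14.4% and 23.4%, in this order. In the annotation 25 of the 150 overlap another gene, 22 on the opposite strand and 4 on the same strand, among them AT4G09950, AT5G20970, ABCG1, AGAL2, KCS2, DELTA-VPE, GRF7, BZIP61, AT4G01700, AT4G28310, AT1G69526 and AT3G60910. The libraries were unstranded, so reads of such a gene and of its partner cannot be told apart.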

How the data were processed

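Per the submitters' processing notes and the methods of the study, the authors trimmed reads with Trim Galore 0.4.2, aligned them with HISAT2 2.0.5 to TAIR10 with the Araport11 annotation, and deposited whole-number counts per gene from featureCounts 1.5.1. The labels give poly(A) selection and unstranded libraries, while the methods name a total RNA kit, so how ribosomal RNA was removed is unsure, which bears on the ribosomal RNA shares and on transcripts without a poly(A) tail. A second table deposited by the authors held log2 expression values after DESeq2 1.10.1. How these were transformed is not given in the sources used here, and they served only as an alternative. The third table held an isoform signal that the authors made with Salmon 0.7.2 and sleuth 0.28.1, read here from its values as TPM divided by a size factor per library, and it lists only transcripts that passed the filter of the authors. Columns with the authors' own comparisons (p-values and q-values) were not used.

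CPM was computed from the deposited counts, on the total of all rows of a column. Counts were tested in R 4.3.3 with edgeR 4.0.16 (TMM, filterByExpr with a minimum count of 10, glmQLFit over all 30 libraries with time point as the factor, 4 contrasts tested) and Benjamini-Hochberg adjustment over 23222 genes, and isoform ratios with limma 3.58.1. The procedure was tested on simulated data. DESeq2 1.42.0, other scalings and filters, a replicate block and the omission of single libraries were alternatives. Same-numbered libraries deviated together between 12 and 6 h SL (correlations 0.127, 0.143 and 0.25) and not in each pair of the other contrasts, and the labels give no shared batch. Per kilobase means per 1000 bases of summed exon length. Sequences come from RefSeq TAIR10.1, to which all 150 genes were matched by identifier, 149 with the same start and end as in the deposited table.

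The genes, role groups, gene lists and sequence words were chosen with earlier results of these data known. The rule for named genes took the 10 sharpest, the 5 most abundant, the 5 largest called changes in each direction between 48 and 12 h SL and between 12 and 6 h SL, genes on the lists (DNA replication, core histones, cuticle and wax, glyoxylate cycle, ethylene synthesis, chitinases, ribosomal proteins), transcription factors, neighbours, isoform calls, and the genes on either side of the limit. Some genes that the rule took are not described. Among them are ENODL9 (log2 fold change 4.471 at 48 h SL over 12 h SL) and AT1G63310 (4.555 at 12 h SL over 6 h SL). The listed transcription factors AT2G43140 and AT3G21330 were left out too. Other genes were picked to show the range of a group after their values were seen.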

Additional observations from a re-analysis of the deposited data

How the results depend on the processing

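Counts of called genes kept within 1.5 times of the main value except as follows. Among the 150 genes, 34 were lower at 48 h SL than at 12 h SL in a fit of those 6 libraries alone, and 6 were lower at 48 h SL than at 0 h in such a fit. With library size alone 1 of the 150 was lower at 12 h SL than at 6 h SL (1963 of all genes), 8 were lower at 6 h SL than at 48 h S, and 1 was lower at 48 h SL than at 0 h (4135 of all genes). When single libraries were left out, 1629 to 2274 of all genes were higher at 12 h SL than at 6 h SL, the fewest without replicate 2 of 6 h SL, and 9 to 12 of the 150 were lower at 6 h SL than at 48 h S, the fewest without replicate 2 of 48 h S. Isoform calls depended most on the settings. For 24 h SL against 12 h SL a pseudocount of 1 gave 674 genes (11 of the 150), a mean above 1 for both isoforms gave 36 (0 of the 150), and leaving out single libraries gave 118 to 335 (2 to 6 of the 150). For 48 h SL against 24 h SL these were 515 (4 of the 150), 35, and 50 to 192 (0 to 1 of the 150). Of the 150 genes, 95 would also be chosen with TMM scaling and 98 with DESeq2 size factors, and 104 to 148 with the other settings of the rule or without 1 library. In the log2 values deposited by the authors, an alternative chosen after seeing the data like the peaks of genes and lists under TMM and DESeq2 scaling, 148 of the 150 had their highest mean at 24 h SL. With the replicate block 44 of the 150 were higher and 16 lower at 48 h SL than at 12 h SL, and 71 higher and 3 lower at 12 h SL than at 6 h SL, and among the named calls it ended only that of AT1G69526 for the isoform ratio. Of 66 named values under all alternatives, 9 lost their call under at least 1, each named with its result, and ICL at 48 h SL against 0 h reversed with library size alone (0.0833). In the shallowest library of 12 h SL, with 12038278 reads, 1 CPM is about 12 reads, which limits the genes of low level there.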
